A study of Caenorhabditis elegans with 48 samples.

Results

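The 2 Caenorhabditis elegans strains compared here carry the plant F-box protein TIR1 in different cells and were the controls, without a degron, of a study that depletes the heat shock factor HSF-1. CA1199 has the insertion ieSi38 on chromosome IV, which fuses the sun-1 promoter and sun-1 3′ UTR to TIR1::mRuby, for expression in the germline, in an unc-119(ed3) III background rescued with Cbr-unc-119(+). CA1200 has ieSi57 on chromosome II, in which the eft-3 promoter and the unc-54 3′ UTR drive TIR1::mRuby in somatic cells, with the same unc-119 allele and rescue. The comparison takes the 3 CA1199 and the 3 CA1200 libraries of whole young adults moved to ethanol plates for 2 h at 20 °C with no heat shock, 6 of the 48 libraries of the series. The libraries were taken by strain, plate and temperature, and the comparison itself was chosen with earlier results of these data known. Both strains have untagged hsf-1, both were synchronised by bleaching and grown for 51 h, and neither received auxin, so the contrast gives the basal difference between the control strains. JTL621 (germline TIR1) and JTL611 (somatic TIR1) additionally carry hsf-1::aid::gfp on chromosome I. Their 6 unheated ethanol libraries form the corresponding pair with the degron-tagged gene.

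In the auxin-inducible degron system, TIR1 recruits a tagged protein to a ubiquitin ligase only when auxin is present, and without auxin the strains serve as a baseline. At the time sampled, C. elegans hermaphrodites have passed or are passing their last molt, at which a wave of collagen genes builds the adult cuticle. The germline has finished making sperm, marked by the major sperm proteins, and turns to oocytes loaded with maternal RNAs and with yolk made in the intestine from the vit genes, so RNAs of these groups change quickly with hours of development. The labelled stage was checked against these markers in all 6 libraries. The 6 vitellogenin genes together had 44138, 53857 and 47290 CPM (counts scaled to the size of the library) in CA1199, against 49463, 32033 and 48760 CPM in CA1200, and 29 of 31 major sperm protein genes were measured. Of 12 genes of male tissues only swm-1 was listed in both strains' tables, and 9 of 56 genes first transcribed in embryos were.

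The 6 libraries held 14392009 to 17541208 reads assigned to genes, of which rRNA genes took 3.89% to 11.9%. Across genes, the correlation of log2(CPM + 1) was 0.988 to 0.992 for the 6 pairs of libraries of the same strain and 0.977 to 0.990 for the 9 pairs between strains. The labels do not say whether replicates came from separate cultures, so p-values measure the spread between replicate libraries, which may be partly technical. For CA1199 against CA1200 this spread was estimated over all libraries of both strains, heated and auxin ones included, not from the 6 alone. CA1199 and CA1200 libraries also stand in different blocks of library numbers at every replicate. JTL621 libraries lie in the blocks of CA1199, and JTL611 libraries in those of CA1200. Each strain has its own deposited table, so between CA1199 and CA1200 strain, transgene, number block and table cannot be told apart.

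Of 12003 genes that averaged 1 CPM or more, 654 (5.45%) were called between CA1199 and CA1200 (limma, moderated test, Benjamini-Hochberg adjusted p under 0.05 over all genes). CA1199 was higher for 506 genes (4.22%) and lower for 148 (1.23%), while the median log2 fold change of all genes was -0.01. The higher genes changed more: their median log2 fold change was 0.72, with 140 over 2-fold and 27 over 4-fold, against a median of -0.37 for the lower genes, with 10 over 2-fold and 1 over 4-fold. The 3 libraries of CA1199 and the 3 of CA1200 did not overlap for 496 of the 506 higher and for all 148 lower genes, where 23.3% of all genes showed no overlap. Single libraries carried much of the count, although leaving 1 out also leaves fewer libraries in its group. CA1199 replicate 2 was the highest of its group for 395 of the 506 higher genes (78.1%, against 38.9% of all genes), and without it 257 genes were called. Without CA1200 replicate 2 or replicate 3 the number was 365 and 320. With the authors' own scaling kept, 645 genes were higher and 83 lower, and with quantile scaling the split was 404 and 184. Without CA1199 replicate 2 it was 176 higher and 81 lower.

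**Figure D1:**
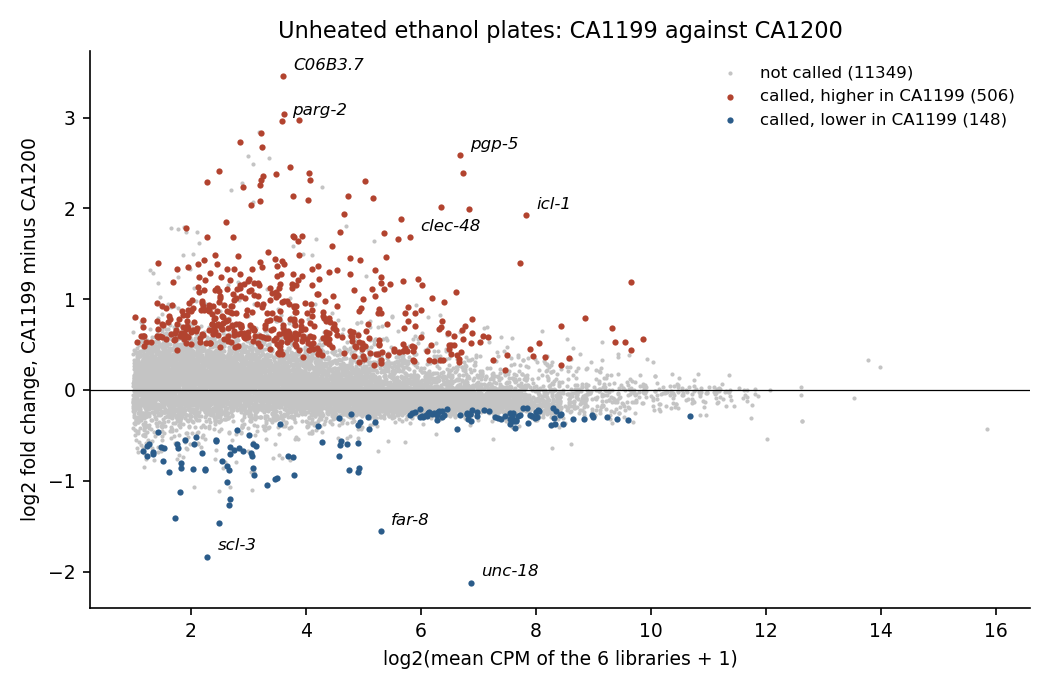
Each point is 1 gene, plotted by its mean level over the 6 unheated ethanol libraries (log2 of CPM + 1) and the log2 fold change of CA1199 over CA1200, with called genes in colour. The 506 higher genes reach further from 0 than the 148 lower genes.

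Genes whose sequences the transgenes borrow were read first. The germline gene sun-1, on chromosome V at 13191700 to 13193538 (minus strand, WBcel235), encodes a nuclear envelope protein needed for meiotic pairing. It had 88.1, 76.8 and 86.4 CPM in CA1199, against 112, 111 and 116 CPM in CA1200. All 3 CA1199 libraries lay below all 3 CA1200 libraries, so reads assigned to sun-1 were fewer in the strain whose transgene uses the sun-1 promoter and 3′ UTR (log2 fold change -0.43 ± 0.06 SE, limma adjusted p = 0.000282). In the degron-tagged pair the values were 77.6, 77.7 and 84.2 CPM in JTL621, against 111, 106 and 100 CPM in JTL611 (-0.40, limma adjusted p = 0.058). The muscle myosin gene unc-54, unc-119 and eef-1A.1, the elongation factor gene also called eft-3, were not called: eef-1A.1 had 9637, 12550 and 12240 CPM in CA1199, against 11675, 11194 and 13462 CPM in CA1200. The heat shock factor gene hsf-1 had 36.5, 40.1 and 43.9 CPM in CA1199, against 41.2, 41.8 and 44.7 CPM in CA1200, overlapping ranges with a log2 fold change of -0.08 ± 0.12 SE (limma adjusted p = 0.725).

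The largest reduction in CA1199 was in unc-18, the Munc18 homologue required for synaptic vesicle release. It had 36.2, 41.7 and 51.0 CPM in CA1199, against 214, 173 and 180 CPM in CA1200 (log2 fold change -2.12 ± 0.13 SE, limma adjusted p = 1.02e-09). The gap between the strains was several times the spread within either. In the tagged pair unc-18 stood at 43.2, 45.8 and 55.1 CPM in JTL621, against 192, 192 and 206 CPM in JTL611, close to the untagged levels. The fatty acid and retinol binding protein gene far-8 had 15.9, 19.5 and 22 CPM in CA1199, against 49.2, 67.9 and 57.0 CPM in CA1200 (-1.55 ± 0.15 SE, limma adjusted p = 2.78e-06), again without overlap. Lower as well were scl-3, of the secreted SCP-like family, at 1.13, 1.59 and 0.746 CPM in CA1199, against 6.43, 7.55 and 5.90 CPM in CA1200, and R11D1.3 at 1.79, 2.16 and 1.97 CPM, against 7.30, 6.33 and 8.2 CPM. The calls of unc-18, far-8, scl-3, R11D1.3 and R13D7.2 held with each of the 6 libraries left out in turn. Of the other genes among the 15 with the largest reductions, F41G3.10, Y73F4A.2, C14C6.5 and clec-4 lost the call when single libraries were left out, with limma adjusted p up to 0.168 for clec-4 without CA1199 replicate 3.

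**Figure D2:**
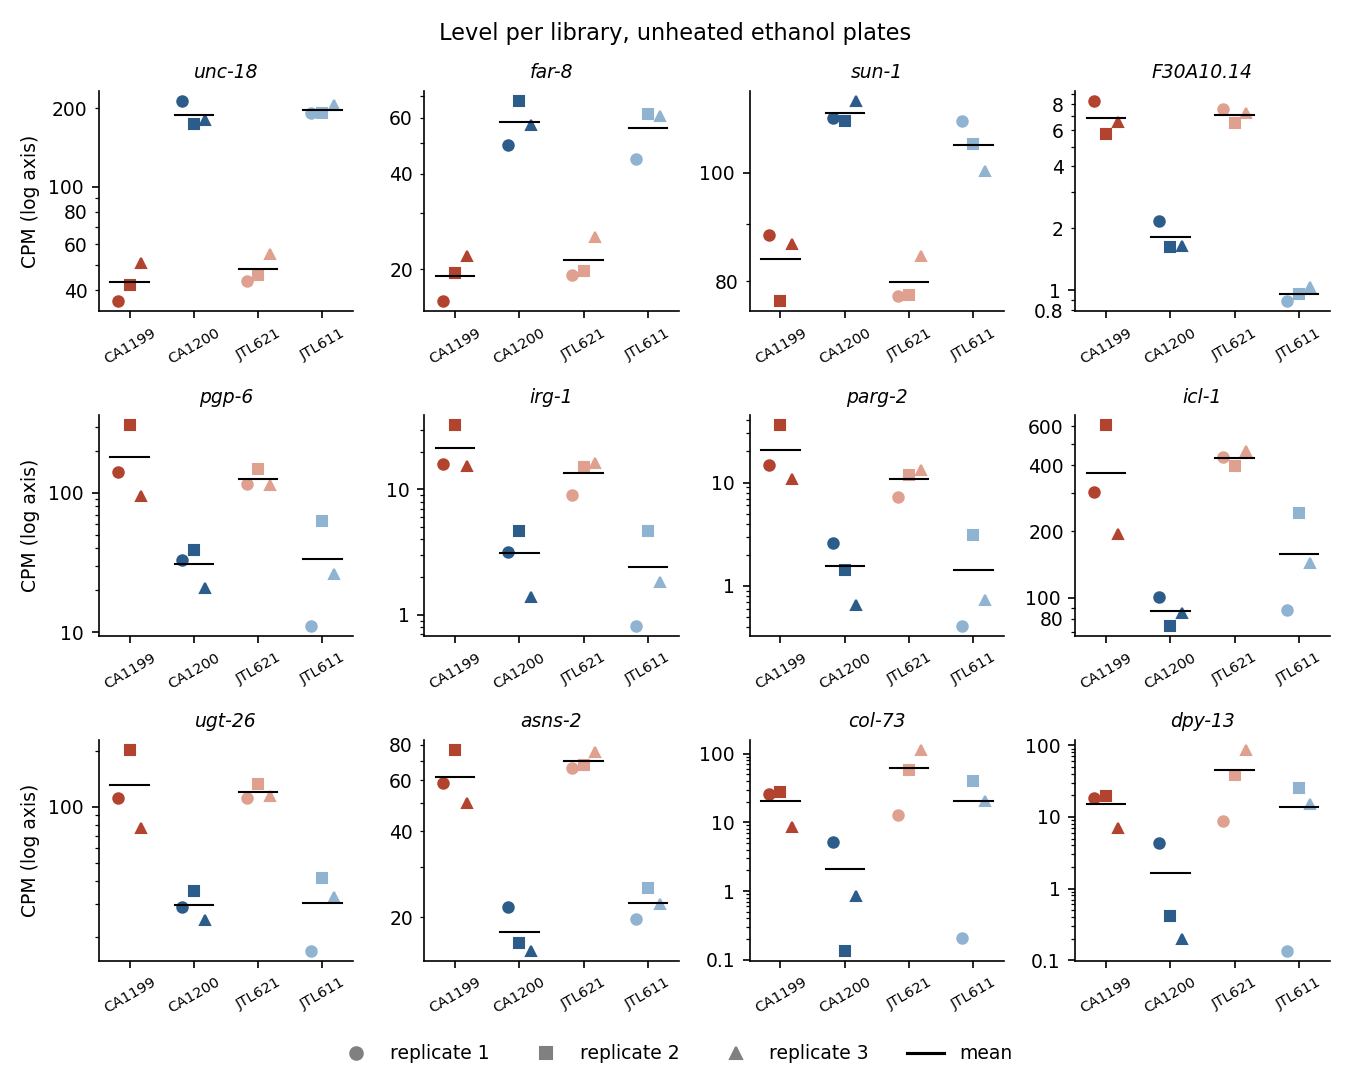
CPM on a log axis for 12 genes in the 3 unheated ethanol libraries each of CA1199, CA1200, JTL621 and JTL611, with a bar at the mean. The levels of unc-18 and far-8 are low in both germline-TIR1 strains, while col-73 and dpy-13 spread over more than 10-fold within CA1200 and within JTL611.

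On the higher side, C06B3.7 and several collagen genes had the largest fold changes. The ABC transporter genes pgp-5, pgp-7 and pgp-6 lie side by side on chromosome X, from 10854216 to 10877425, and rose together. The level of pgp-5 was 154, 282 and 88.3 CPM in CA1199, against 35, 35.3 and 12.8 CPM in CA1200 (log2 fold change 2.59 ± 0.45 SE, limma adjusted p = 0.00138). The level of pgp-6 was 141, 307 and 95.3 CPM in CA1199, against 33.1, 38.8 and 20.7 CPM in CA1200 (2.39 ± 0.38 SE, limma adjusted p = 0.000601). CA1199 replicate 2 was the highest library for both, and all CA1199 libraries exceeded all CA1200 libraries. The poly(ADP-ribose) glycohydrolase gene parg-2 had 14.9, 35.9 and 10.7 CPM in CA1199, against 2.60, 1.43 and 0.656 CPM in CA1200 (2.96 ± 0.36 SE, limma adjusted p = 7.14e-05). The infection response gene irg-1 had 15.9, 32.5 and 15.4 CPM in CA1199, against 3.19, 4.69 and 1.38 CPM in CA1200 (2.45 ± 0.30 SE, limma adjusted p = 7.57e-05). The fold change of C06B3.7 was 3.46 ± 0.49 SE on the log2 scale, with 11.5, 39.6 and 13.4 CPM in CA1199, against 1.84, 0.612 and 0.197 CPM in CA1200. The calls of pgp-5, pgp-6, pgp-7, parg-2, irg-1, irg-2, C06B3.7, C25F9.11 and hmit-1.1, a proton-coupled myo-inositol transporter gene, held with each of the 6 libraries left out. Y58A7A.5 lost it without CA1199 replicate 2 (limma adjusted p = 0.0875) and without CA1200 replicate 3 (0.0713).

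The first developmental group examined was the oocyte. Of 26 genes for oocyte and eggshell proteins, 7 fell in CA1199 (26.9%, against 1.23% of all genes) and 0 rose (limma). The log2 fold change was negative for all 26, with a median of -0.27 against -0.01 over all genes. Summed, the 26 genes had 9997, 11229 and 11975 CPM in CA1199, against 12831, 12645 and 14517 CPM in CA1200. The sums did not overlap, and the difference was small beside the genes above. The PUF-family RNA-binding protein gene puf-11 had 281, 275 and 234.8 CPM in CA1199, against 346, 347 and 340 CPM in CA1200 (-0.39 ± 0.09 SE, limma adjusted p = 0.0106). The oocyte maturation gene oma-1 had 211, 217 and 251 CPM in CA1199, against 270, 281 and 287 CPM in CA1200 (-0.31 ± 0.07 SE, limma adjusted p = 0.0145). Their relatives puf-3 (-0.38) and oma-2 (-0.32) fell by similar amounts. The call of oma-1 was lost without any 1 of 4 libraries (limma adjusted p up to 0.0799). That of oma-2 ended without CA1199 replicate 2 (limma adjusted p = 0.102) or CA1200 replicate 3 (0.0808), and that of puf-11 without CA1199 replicate 3 (0.0522). The call of puf-3 held with each library left out. The most abundant member, the eggshell gene cbd-1, was not called at 1547, 1906 and 1906 CPM in CA1199, against 2122, 1815 and 2586 CPM in CA1200. The yolk receptor gene rme-2, chosen after its values were seen, had 619, 816 and 727 CPM in CA1199, against 879, 894 and 978 CPM in CA1200 (limma adjusted p = 0.0526). In whole animals, fewer cells of a type and less RNA per cell cannot be told apart. The count of 7 was 4 without CA1199 replicate 1 or replicate 2, 3 and 2 without CA1200 replicate 2 and replicate 3, and 0 when the fit held only the 6 libraries (19 of the 26 had an unadjusted p under 0.05 in the 24-library fit). In the tagged pair the 26 genes summed to 8902, 12003 and 11477 CPM in JTL621, against 14213, 12234 and 12917 CPM in JTL611. These sums were apart by a narrow margin (12003 against 12234 CPM), and 0 of the 26 were called there (median -0.27). On unheated auxin, heated ethanol and heated auxin plates 0 were called between CA1199 and CA1200, with medians of -0.14, -0.17 and -0.18.

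Maternal and replication genes, and the cell-wide proteasome list, leaned the same way by small amounts. Maternal RNA-binding genes, whose transcripts are stored for the early embryo, had a median of -0.21, with 16 of 17 below 0 and 0 called (limma; 5 with unadjusted p under 0.05 and 0 called by voom), although 6 were called lower without CA1199 replicate 3. Their most abundant member, mex-5, had 397, 450 and 580 CPM in CA1199, against 534, 547 and 629 CPM in CA1200. DNA replication and mitosis genes had a median of -0.20 with all 22 below 0. Of the 22, 4 subunit genes of the replicative helicase were called lower (18.2%, against 1.23% of all genes). Of these, mcm-6 had 215, 221 and 208 CPM in CA1199, against 260, 264 and 257 CPM in CA1200 (-0.28 ± 0.07 SE, limma adjusted p = 0.0264), and mcm-3, mcm-5 and mcm-7 changed by -0.28 to -0.30. The 22 genes summed to 4003, 4130 and 4243 CPM in CA1199, against 4737, 4992 and 5006 CPM in CA1200, without overlap. Of 31 proteasome subunit genes 7 fell (22.6%, against 1.23% of all genes) and all 31 were below 0, with a median of -0.20. Among them rpt-2, an ATPase subunit, had 291, 302 and 310 CPM in CA1199, against 353, 359 and 346 CPM in CA1200 (-0.23 ± 0.06 SE, limma adjusted p = 0.0165). These replication and proteasome calls were close to the threshold. The replication count of 4 was 2 without CA1199 replicate 1 and 0 without CA1199 replicate 2 or any 1 CA1200 library, and 0 with the authors' own scaling. The proteasome count of 7 was 4 and 2 without CA1199 replicate 1 and replicate 2, 0, 0 and 3 without CA1200 replicates 1, 2 and 3, and 1 with the authors' own scaling.

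The sperm, meiosis and yolk groups gave no call, with limma, in either direction. The 29 major sperm protein genes had a median of -0.03 (0 with unadjusted p under 0.05) and summed to 2271, 1997 and 2220 CPM in CA1199, against 2424, 2109 and 2045 CPM in CA1200, which overlap. The 35 spermatogenesis genes had a median of 0.04, with 1 at an unadjusted p under 0.05. Median values were -0.13 for 30 meiosis genes and -0.14 for 20 germ granule genes, of which 5 and 7 had an unadjusted p under 0.05. None of these 4 groups had a member called by voom either, though 2 meiosis genes were called lower without CA1199 replicate 1 and 2 germ granule genes without CA1199 replicate 2. Yolk RNA levels overlapped between the strains. The level of vit-2 was 13448, 18440 and 14513 CPM in CA1199, against 13382, 9272 and 14527 CPM in CA1200 (0.33 ± 0.21 SE, limma adjusted p = 0.365). The level of vit-6 was 15137, 20098 and 16870 CPM in CA1199, against 16409, 10239 and 17979 CPM in CA1200 (0.25 ± 0.24 SE). The log2 fold changes of vit-1, vit-3, vit-4 and vit-5 lay between -0.12 and 0.04, none of the 6 had an unadjusted p under 0.05, and voom called 0. Few embryonic genes were measurable. Of the 8 tested, 2 rose: the posterior Hox gene nob-1, with 2.81, 7.25 and 5.87 CPM in CA1199, against 1.89, 1.22 and 1.51 CPM in CA1200 (1.25 ± 0.21 SE, limma adjusted p = 0.000839), and sdz-24, which lost its call without any 1 of 4 libraries (limma adjusted p up to 0.137, without CA1200 replicate 3). These 2 were 25% of the list, against 4.22% of all genes, and the median of the 8 was 0.06.

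**Figure D3:**
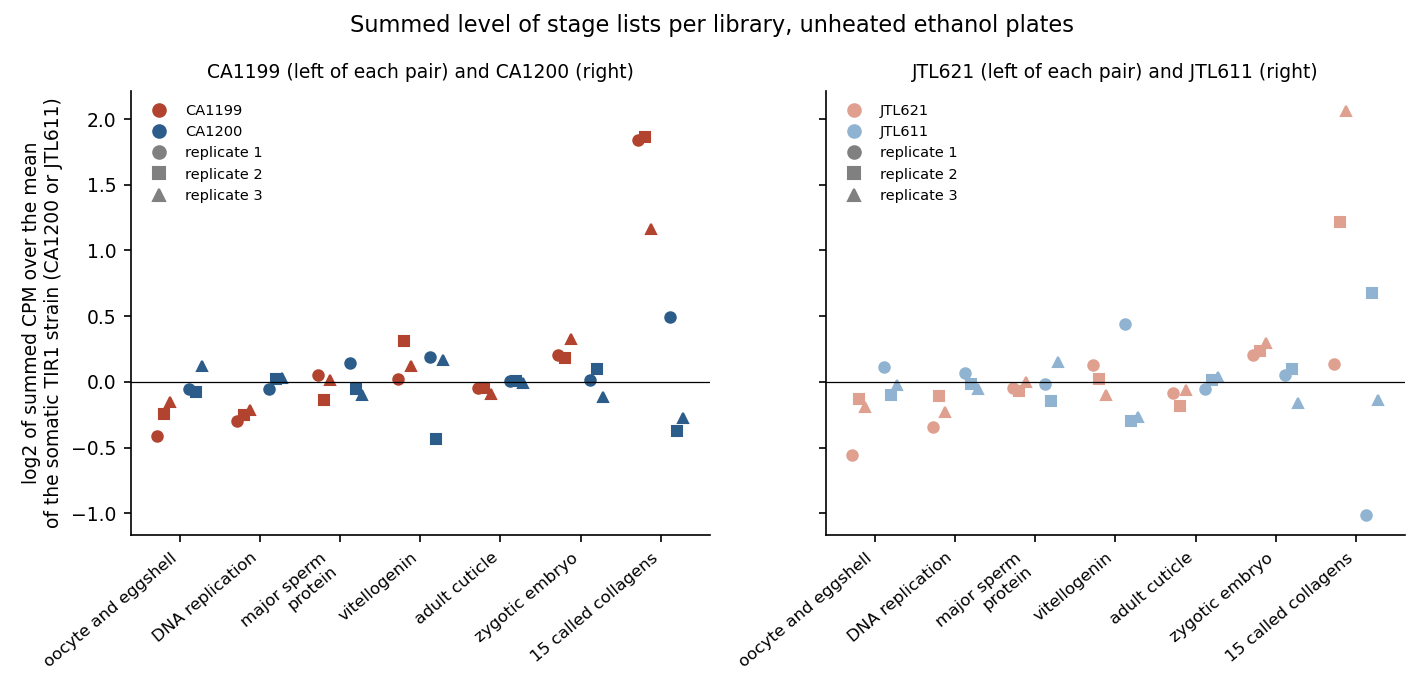
Summed CPM of each stage list per unheated ethanol library, as log2 of its ratio to the mean of the somatic TIR1 strain, with CA1199 and CA1200 in the left panel and JTL621 and JTL611 in the right. Oocyte and DNA replication sums of CA1199 lie below those of CA1200 without overlap, sperm and yolk sums overlap, and the 15 called collagens spread most within strains.

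Cuticle collagen genes split by level. The 103 collagen genes tested summed to 49209, 48377 and 50478 CPM in CA1199, against 51342, 51529 and 51350 CPM in CA1200, and their median log2 fold change was 0.02. The adult collagen gene col-19 stood at 2215, 2067 and 2225 CPM in CA1199, against 2213, 2244 and 2136 CPM in CA1200 (-0.02 ± 0.09 SE). Yet 15 collagen genes rose (14.6%, against 4.22% of all genes) and 0 fell, and none of the 15 had a mean above 76.0 CPM in CA1199. Together these 15 had 312, 317 and 194 CPM in CA1199, against 122, 67 and 71.8 CPM in CA1200, a ratio of means of 3.15. Among them dpy-13, on chromosome IV at 4235614 to 4236710 and needed for normal body length, had 18.6, 19.3 and 7.09 CPM in CA1199, against 4.33, 0.408 and 0.197 CPM in CA1200 (2.83 ± 0.77 SE, limma adjusted p = 0.0331). The level of col-73 was 25.5, 28.1 and 8.42 CPM in CA1199, against 5.19, 0.136 and 0.853 CPM in CA1200 (3.04 ± 0.88 SE, limma adjusted p = 0.0452). The level of col-34 was steadier, at 17.2, 27.9 and 23.5 CPM in CA1199, against 10.3, 8.23 and 10.0 CPM in CA1200 (1.16 ± 0.19 SE, limma adjusted p = 0.00084). Replicates of 1 strain differed widely for most of the 15: CA1200 replicate 1 was above replicates 2 and 3, and CA1199 replicate 3 below replicates 1 and 2, in dpy-13 and col-73. The count of 15 was 7 and 2 without CA1199 replicate 1 and replicate 2, and 2 and 3 without CA1200 replicate 2 and replicate 3. It was 22 with only the 6 libraries in the fit and 8 by voom. The call of col-34 held with each library left out, and those of col-73, col-138, col-175 and dpy-13 each ended without any 1 of 4 libraries, with limma adjusted p up to 0.192. In the tagged pair the 15 genes summed to 247, 522 and 941 CPM in JTL621, against 111, 360 and 204 CPM in JTL611, with 3.81-fold and 3.23-fold between the highest and the lowest library of each strain, and those sums overlap.

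Genes of molting and of developmental timing gave few calls. Of 43 molting and cuticle synthesis genes 2 rose (4.65%), a share near the 4.22% of all genes called higher. They were the patched-related genes ptr-18 and ptr-24, and the median of the list was 0.23, with 31 of 43 above 0. In the shorter lists below, a single call is too few to set against that share. The level of ptr-18 was 1.49, 2.61 and 1.49 CPM in CA1199, against 0.757, 0.680 and 0.525 CPM in CA1200 (0.77 ± 0.15 SE, limma adjusted p = 0.00359). The count of 2 was 0 without CA1199 replicate 2 and 5 without CA1199 replicate 3. In the heterochronic list, which holds regulators of the larva-to-adult switch, 1 of 12 rose and 10 of 12 were above 0. It was lin-46, with 1.73, 2.67 and 2.29 CPM in CA1199, against 1.30, 1.09 and 0.984 CPM in CA1200 (0.60 ± 0.15 SE, limma adjusted p = 0.0225), and it lost the call without any 1 of 4 libraries (limma adjusted p up to 0.128, without CA1199 replicate 2). The adult-switch factor lin-29, chosen after its values were seen, had 4.48, 5.09 and 6.82 CPM in CA1199, against 4.38, 3.13 and 4.07 CPM in CA1200 and was not called (limma adjusted p = 0.135). Adult cuticle genes showed 1 call of 6, col-63 (2.73 ± 0.66 SE), which ended without CA1199 replicate 2 (limma adjusted p = 0.106), CA1200 replicate 2 (0.089) or CA1200 replicate 3 (0.0808). The remaining members bli-6, col-7 and col-62 were not called (0.24, -0.40 and -0.41). The adult strut collagen gene bli-1 had 5.37, 2.16 and 1.01 CPM in CA1199, against 0.595, 0.748 and 0.721 CPM in CA1200, just short of the threshold (limma adjusted p = 0.0584). In vulva and uterus development 1 of 8 genes rose, egl-13 (0.63 ± 0.18 SE, limma adjusted p = 0.0407), with the call lost without any 1 of 5 libraries.

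Some metabolic genes of fasting and lipid use were higher in CA1199. Of 21 tested, 5 rose (23.8%, against 4.22% of all genes), 0 fell and 20 were above 0, with a median of 0.26. The glyoxylate cycle gene icl-1, on chromosome V at 724332 to 728004, had 301, 607 and 194 CPM in CA1199, against 100, 74.3 and 84.7 CPM in CA1200 (1.93 ± 0.33 SE, limma adjusted p = 0.00138). The fatty acyl-CoA synthetase gene acs-2 had 43.9, 109 and 24.7 CPM in CA1199, against 8.44, 14.3 and 9.90 CPM in CA1200 (2.11 ± 0.46 SE), and lost the call without CA1199 replicate 2 (limma adjusted p = 0.081). The lowest CA1199 library still exceeded the highest CA1200 library for both genes. The desaturase gene fat-2 rose by a small amount at high precision, with 397, 461 and 415 CPM in CA1199, against 319, 341 and 336 CPM in CA1200 (0.35 ± 0.07 SE, limma adjusted p = 0.0043). The count of 5 was 2 and 3 without CA1199 replicate 2 and CA1200 replicate 2, and 2 when the fit held only the 6 libraries. The asparagine synthetase gene asns-2, outside the list and chosen after its values were seen, had 59.0, 76.7 and 49.9 CPM in CA1199, against 21.8, 16.3 and 15.3 CPM in CA1200 (1.73 ± 0.25 SE, limma adjusted p = 0.000268).

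Detoxification genes gave calls mainly in 1 family. Of 49 UDP-glucuronosyltransferase genes, whose enzymes attach sugars to small molecules, 7 rose and 1 fell, with a median of 0.22. The share called in either direction was 16.3%, against 5.45% of all genes. The leading member ugt-26 had 112, 203 and 77.4 CPM in CA1199, against 29, 35 and 24.5 CPM in CA1200 (2.01 ± 0.33 SE, limma adjusted p = 0.00084), whereas ugt-63 had 22.7, 14.2 and 25.2 CPM in CA1199, against 26.6, 44.5 and 43.7 CPM in CA1200 (-0.86 ± 0.21 SE, limma adjusted p = 0.0162). The call of ugt-63 ended without CA1199 replicate 2 (limma adjusted p = 0.125), CA1200 replicate 2 (0.0895) or CA1200 replicate 3 (0.0859). The 7 higher calls became 1 without CA1199 replicate 2, and 2 and 3 without CA1200 replicate 1 and replicate 3. Of 28 glutathione S-transferase genes, gst-13 and gst-38 were called higher (7.14%), and of 39 cytochrome P450 genes cyp-32B1 was (2.56%), shares near or below the 4.22% of all genes. All 3 calls ended without CA1199 replicate 2 (limma adjusted p 0.17, 0.227 and 0.134). Among 16 stress regulator and redox genes the superoxide dismutase gene sod-3 was the 1 called, lower at 1.13, 0.954 and 0.746 CPM in CA1199, against 1.57, 2.38 and 2.49 CPM in CA1200 (-0.69 ± 0.20 SE, limma adjusted p = 0.0473). It lost the call without any 1 of 5 libraries.

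Immune gene groups moved in both directions. Of 72 C-type lectin genes, secreted proteins of the intestine and other tissues, 9 rose and 2 fell, with a median of 0.17. Called in either direction were 15.3%, against 5.45% of all genes. The level of clec-48 was 58.0, 111 and 87.2 CPM in CA1199, against 25.1, 23.4 and 26.6 CPM in CA1200 (1.68 ± 0.19 SE, limma adjusted p = 3.92e-05), and clec-49 and clec-84 rose by 1.30 and 1.25. The 9 calls were 14 without CA1199 replicate 1, 4 without CA1199 replicate 2 and 5 without CA1200 replicate 2. Of 12 genes of the intracellular pathogen response, which viruses and microsporidia induce, 7 rose (58.3%, against 4.22% of all genes). Of the 12, 11 were above 0, with a median of 0.56. Among them pals-32 had 6.63, 8.78 and 8.21 CPM in CA1199, against 2.27, 3.40 and 1.97 CPM in CA1200 (1.34 ± 0.17 SE, limma adjusted p = 7.57e-05). It was the call that held with each library left out among the 5 named, since pals-23, skr-4, pals-17 and skr-3 each lost theirs without CA1199 replicate 2. The count of 7 was 1 without CA1199 replicate 2, CA1200 replicate 1 or CA1200 replicate 3, and 4 without CA1200 replicate 2. The 52 antimicrobial genes had a median of 0.01, with 2 higher and 7 lower (17.3% in either direction, against 5.45% of all genes). All 7 lower calls were fungus-induced protein genes of the fip and fipr family, near-identical short genes between which reads may be split. The level of fip-2 was 9.79, 9.54 and 8.69 CPM in CA1199, against 14.9, 16.8 and 17.1 CPM in CA1200 (-0.74 ± 0.16 SE, limma adjusted p = 0.0063). The count of 7 was 4 without CA1199 replicate 1, 1 without CA1199 replicate 3 and 1, 2 and 1 without CA1200 replicates 1, 2 and 3.

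Heat-inducible chaperone genes were low but uneven in animals that had not been heated. The near-identical HSP-70 genes F44E5.4 and F44E5.5, whose reads cannot be assigned with certainty to either, were the 2 called of 6 (33.3%, against 4.22% of all genes). F44E5.4 had 19, 8.65 and 31.6 CPM in CA1199, against 4.16, 1.90 and 11.4 CPM in CA1200 (1.69 ± 0.40 SE, limma adjusted p = 0.0157), ranges that overlap. The summed inducible list had 50.3, 22.5 and 80.2 CPM in CA1199, against 17.1, 6.73 and 37.5 CPM in CA1200. It includes both of these genes, so its same replicate order says little about the other members. Both calls ended without CA1199 replicate 3, CA1200 replicate 1 or CA1200 replicate 2, with limma adjusted p up to 0.12. The 18 constitutive chaperone genes had a median of -0.13 and 0 calls (limma; 4 with unadjusted p under 0.05, 0 by voom and 1 called higher without CA1199 replicate 3). Their most abundant member, hsp-90, had 3098, 3430 and 2662 CPM in CA1199, against 4073, 3617 and 3623 CPM in CA1200 (limma adjusted p = 0.105).

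Neuropeptide genes rose in part, unlike unc-18. Of 76 tested, 9 rose (11.8%, against 4.22% of all genes) and 0 fell, and the median was 0.09. The level of nlp-20 was 11.5, 16.097 and 14.9 CPM in CA1199, against 6.54, 6.67 and 5.25 CPM in CA1200 (1.08 ± 0.17 SE, limma adjusted p = 0.000495). Calls of nlp-20, nlp-17, nlp-12 and flp-16, with log2 fold changes of 0.85 to 1.2, held with each library left out. The count of 9 was 5 without CA1199 replicate 3 or CA1200 replicate 3, and 6 without CA1200 replicate 2. Among 17 general neuronal genes the dense-core vesicle gene ida-1 was the 1 called (5.88%, near the 4.22% of all genes called higher). Its log2 fold change was 0.64 ± 0.16 SE (limma adjusted p = 0.0212), and the call was lost without any 1 of 4 libraries. The synaptobrevin gene snb-1 had 97.2, 104 and 109 CPM in CA1199, against 113, 119.4 and 109.8 CPM in CA1200. The touch neuron tubulin genes mec-7 (0.70 ± 0.13 SE) and mec-12 (0.76 ± 0.14 SE), both chosen after their values were seen, were higher, with mec-12 at 21, 27 and 26 CPM in CA1199, against 16, 13.2 and 13.2 CPM in CA1200 (limma adjusted p = 0.00209).

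Markers of the main somatic tissues gave 0 calls with limma or voom. The medians were 0.05 for 15 body wall muscle genes, 0.18 for 14 intestinal genes, 0.05 for 7 epidermal genes and -0.47 for 7 pharyngeal genes, with 1, 4, 0 and 2 members at an unadjusted p under 0.05. Without CA1199 replicate 1, 1 muscle and 1 intestinal gene were called higher, and without CA1199 replicate 3 there was 1 intestinal gene. With only the 6 libraries in the fit 1 pharyngeal gene was called lower, and with a replicate block 2 intestinal genes were called higher. The pharyngeal genes summed to 51.3, 41.9 and 38.7 CPM in CA1199, against 71.3, 57.1 and 67.7 CPM in CA1200, without overlap, and 6 of the 7 were below 0. They were lower in the tagged pair too by their median (-0.63), but there the sums of 30.9, 38 and 75.8 CPM in JTL621, against 69.6, 69.3 and 101 CPM in JTL611, overlap. In the gonad sheath, spermatheca and uterus list ipp-5 was the 1 called of 15 (6.67%, near the 4.22% of all genes called higher). Its log2 fold change was 0.56 ± 0.16 SE (limma adjusted p = 0.0495). The call of swm-1, a protease inhibitor gene that restrains sperm activation and the sole male-list gene measured, was of the same size (0.56 ± 0.15 SE, limma adjusted p = 0.0355). Both were lost without CA1199 replicate 2 (limma adjusted p 0.186 and 0.195).

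Several other cell-wide groups gave no call. None of 79 ribosomal protein genes, 12 mitochondrial DNA genes, 10 dosage compensation genes or 16 germline sex determination genes was called by limma or voom, with 1, 0, 1 and 2 at an unadjusted p under 0.05 and medians of -0.02, 0.12, -0.13 and -0.10. Among 30 Argonaute and small RNA genes 1 rose (3.33%, below the 4.22% of all genes called higher). This was the double-stranded RNA uptake gene sid-2, with 4.6, 6.43 and 7.36 CPM in CA1199, against 3.35, 2.52 and 2.75 CPM in CA1200 (0.87 ± 0.17 SE, limma adjusted p = 0.00358). The linker histone gene his-24 had 10.9, 17 and 16.8 CPM in CA1199, against 3.68, 6.39 and 7.08 CPM in CA1200 (1.26 ± 0.23 SE, limma adjusted p = 0.00209). It was the 1 histone gene of 32 to rise, while the core histone gene his-38 fell (-1.01 ± 0.18 SE), with 3.05, 3.05 and 3.20 CPM in CA1199, against 6.81, 7.75 and 7.28 CPM in CA1200. The share of the 32 called in either direction was 6.25%, near the 5.45% of all genes. Core histone genes are near-identical copies, and their reads may be split.

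**Figure D4:**
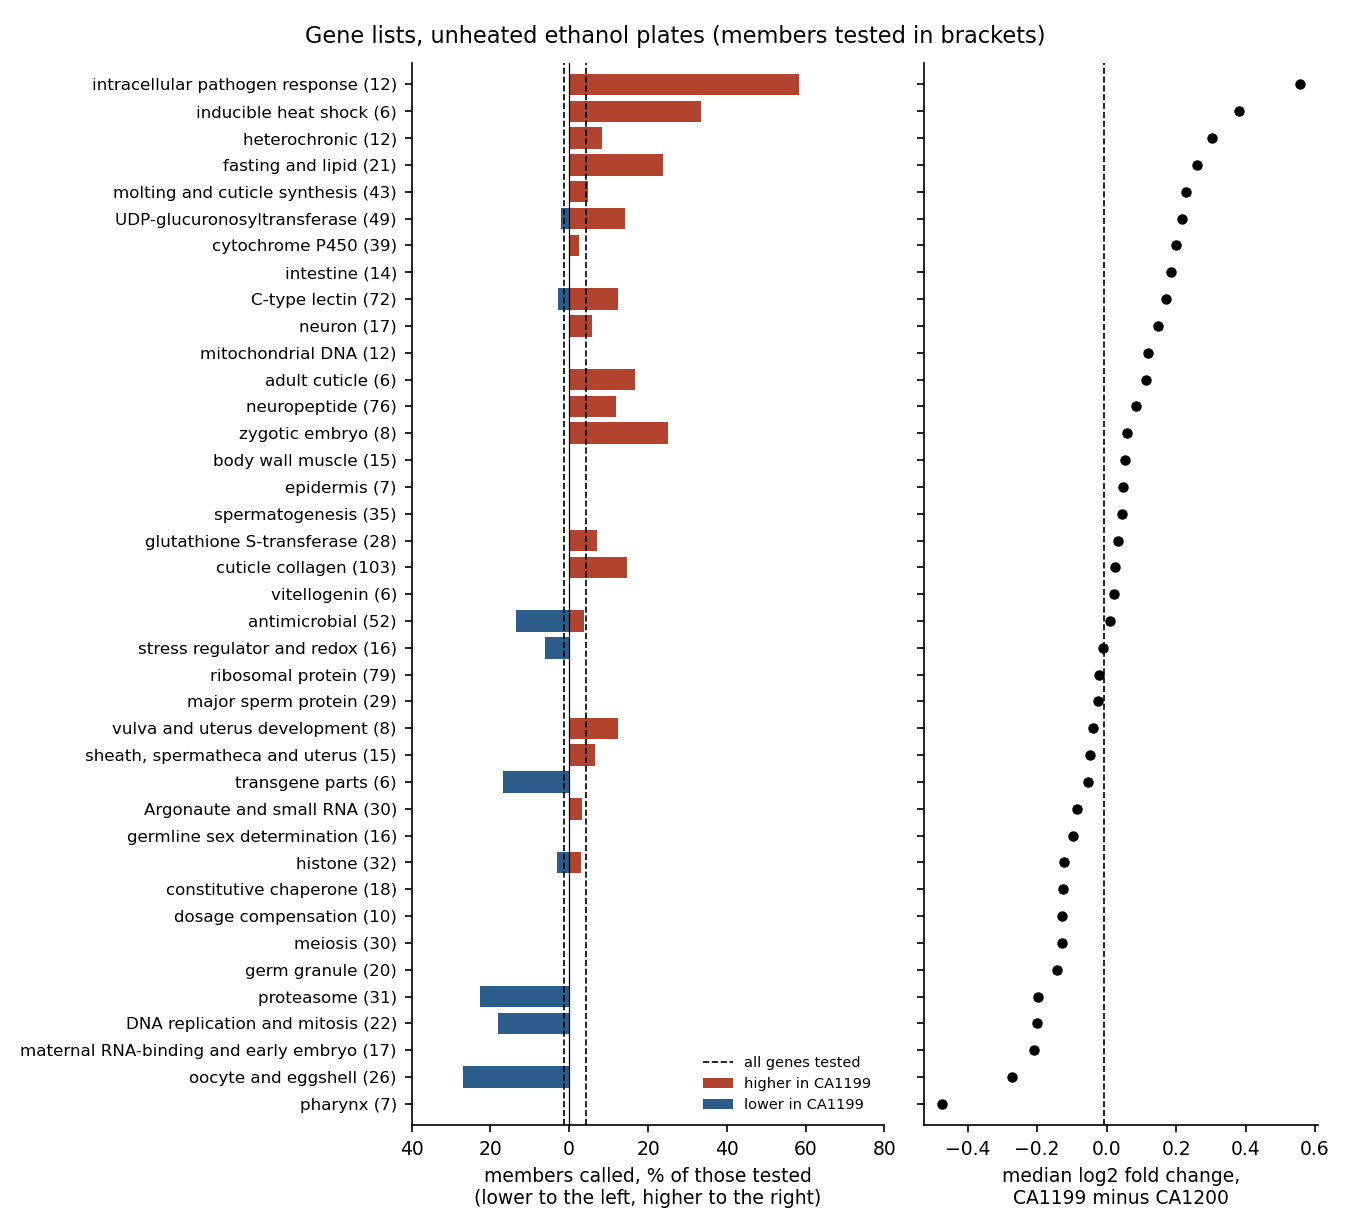
The left panel gives the share of each list's tested genes that were called higher (right of 0) or lower (left of 0) in CA1199, with dashed lines at the 4.22% and 1.23% of all genes, and the right panel the list's median log2 fold change, with a dashed line at the median of all genes. Oocyte, DNA replication and proteasome lists have lower calls and medians below -0.19 and the intracellular pathogen response list has a median of 0.56.

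The same strain contrast was taken in other libraries of the untagged strains, within the same fit of 24 libraries. Its group means used no library of the comparison above. The size factors, the estimate of the spread and the gene filter were shared with it. On auxin plates at 20 °C 384 genes (3.2%) were called, 330 higher (2.75%) and 54 lower (0.45%) in CA1199, or 287 and 95 with quantile scaling. After a heat shock of 30 min at 34 °C the numbers were 118 (0.983%) on ethanol, 88 higher (0.733%) and 30 lower (0.25%), and 135 (1.12%) on auxin, 103 higher (0.858%) and 32 lower (0.267%), or 166 and 26 with trimmed-mean and 48 and 30 with quantile scaling. Each count moved when 1 library was left out, which also leaves fewer libraries in its group. The 384 became 205, 297 and 154 without CA1199 auxin replicates 1, 2 and 3, and 206, 211 and 255 without those of CA1200. The 118 became 1329 without CA1199 heated ethanol replicate 1, where the balance of directions turned to 472 higher and 857 lower. It became 62 and 37 without CA1199 heated ethanol replicates 2 and 3 (18 higher and 19 lower without replicate 3). Without CA1200 heated ethanol replicates 1, 2 and 3 it was 32, 84 and 31. The 135 became 37, 224 and 31 without CA1199 heated auxin replicates 1, 2 and 3, and 210, 46 and 34 without those of CA1200. Of the 654 genes called on unheated ethanol plates, 649 (99.2%) had the same sign on auxin at 20 °C, 576 (88.1%) after heat on ethanol and 570 (87.2%) after heat on auxin, where all 12003 genes gave 75.3%, 63.7% and 67.6%. The 506 higher genes had a median of 0.72 on unheated ethanol plates, 0.56 on unheated auxin plates, 0.26 on heated ethanol plates and 0.22 on heated auxin plates. Those 506 were picked by their unheated ethanol values, so a smaller median in other libraries partly follows from that selection. The larger share of kept signs among the 654 than among all genes partly follows from it too. No gene passed a test of a change in the strain difference with condition (limma interaction, 0 of 12003 for auxin, heat on ethanol and heat on auxin, with 199, 1141 and 1004 at an unadjusted p under 0.05 and a lowest adjusted p of 0.99997, 0.220 and 0.158).

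Between the degron-tagged strains, JTL621 and JTL611, on unheated ethanol plates, 57 of 12103 genes (0.471%) were called, 45 higher (0.372%) and 12 lower (0.0991%) in JTL621, or 146 and 15 with total-count and 44 and 23 with the authors' scaling. Without JTL621 replicates 1, 2 and 3 the number was 14, 12 and 30, and without those of JTL611 it was 20, 122 and 8. Of the 654 genes called between CA1199 and CA1200, 653 were measured there and 642 (98.3%) had the same sign, against 80.05% of the 11892 genes measured in both pairs. The log2 fold changes of those 11892 genes had a correlation of 0.84 across genes, given as a description. Genes of 1 library share its composition, and the untagged and tagged pairs share their transgenes and blocks of library numbers. The 506 higher genes had a median of 0.66 in the tagged pair, and the 148 lower genes -0.32. Because these genes were picked by their values in the untagged pair, that selection bears on their medians and kept signs here. JTL611 replicate 1 was the lowest of its group for 399 of the 506 (78.9%, against 39.2% of all genes) and JTL611 replicate 2 the highest for 380 (75.1%).

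**Figure D5:**
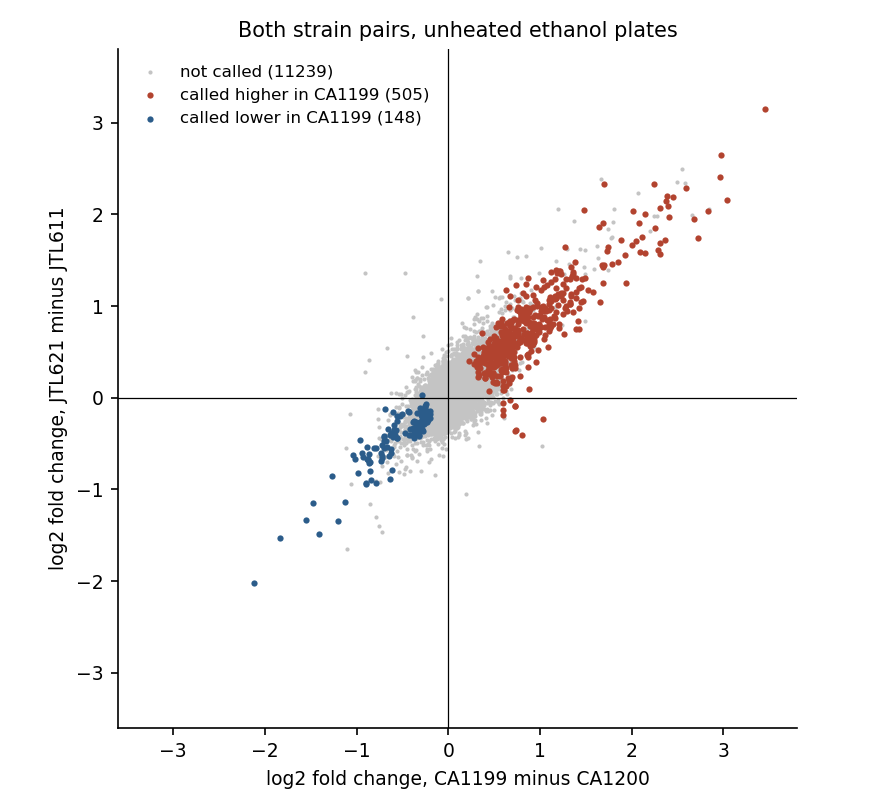
Log2 fold change of CA1199 over CA1200 against that of JTL621 over JTL611 for 11892 genes on unheated ethanol plates, with genes called in the untagged pair in colour. The called genes lie in the quadrants of equal sign, apart from 11.

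The 4 untagged comparisons came from 1 fit with a shared estimate of the spread, so their calls are not independent. Across them, 40 genes were called in the same direction in all 4, 26 higher and 14 lower. Of these, 18 were also called in the tagged pair and are named here after their values were seen. The 7 lower were unc-18, far-8, scl-3, R11D1.3, R13D7.2, C12D5.9 and Y73F4A.1. For unc-18 the log2 fold change was -2.22 on auxin at 20 °C, -2.78 and -2.89 after heat on ethanol and on auxin, and -2.02 between the tagged strains. The 11 higher were pgp-5, pgp-6, pgp-7, irg-1, irg-2, parg-2, pals-32, F30A10.14, T02C5.1, pyp-1 and tbb-6. The small change of pyp-1, an inorganic pyrophosphatase gene, was steady, with 259, 292 and 282 CPM in CA1199, against 214, 226 and 202 CPM in CA1200, and log2 fold changes of 0.35 to 0.44 in the 5 comparisons. On unheated ethanol plates the call of tbb-6 ended without CA1199 replicate 2, CA1200 replicate 1 or CA1200 replicate 2 (limma adjusted p up to 0.0998), and that of Y73F4A.1 without any 1 of 4 libraries (up to 0.107). F30A10.14, on chromosome I at 9476597 to 9477181, had 8.36, 5.73 and 6.61 CPM in CA1199, against 2.16, 1.63 and 1.64 CPM in CA1200 (1.48 ± 0.18 SE, limma adjusted p = 7.14e-05). Its values in the tagged pair were 7.59, 6.52 and 7.31 CPM in JTL621, against 0.885, 0.961 and 1.04 CPM in JTL611. T02C5.1 had 86.2, 117 and 87.5 CPM in CA1199, against 48.1, 48.8 and 43.9 CPM in CA1200 (1.02 ± 0.11 SE, limma adjusted p = 2.35e-05).

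Some genes appeared in the table of 1 strain only, and since each table lists genes over a minimum level in that strain's own libraries they have no value in the other. The CA1199 table alone listed 430 genes, of which 221 had a mean of at least 1 CPM in its unheated ethanol libraries and 2 at least 5 CPM, and 12 were collagen genes. The CA1200 table alone listed 138, of which 63 had a mean of at least 1 CPM and 1 at least 5 CPM, and 2 were collagen genes. E01G4.6 led in CA1199 with 10.9, 20.7 and 0.746 CPM, a spread of more than 10-fold, followed by srw-86, a putative chemoreceptor gene, with 3.64, 7.38 and 4.32 CPM. ZK938.3 led in CA1200 with 12.7, 11.2 and 16.6 CPM, followed by vap-1, of the venom-allergen-like secreted family, with 3.30, 5.17 and 5.71 CPM. The pattern in the tagged tables differed between the leading genes: E01G4.6 and srw-86 were listed for both JTL621 and JTL611, while ZK938.3 and vap-1 were listed for JTL611, which has the same transgene as CA1200, and not for JTL621.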

How the data were processed

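RNA-seq libraries were made from poly(A) RNA of whole animals with a directional kit, per the labels' protocols. The submitters' processing notes name STAR, featureCounts, edgeR and the builds WBcel235 and ce11, with their versions not given in the sources used here. The authors deposited 1 table of log2 CPM per strain (prior count 2), scaled within that table only. The deposited comparison tables, which per the file headers hold log2 fold changes, p-values and a likelihood-ratio score, were not used. Reads were recovered from the log2 values and came out whole, within 0.05 of a read, for 100% of values. Since the deposited unit is log2, no count model was run. Libraries were rescaled together by median-of-ratios size factors over genes listed in both tables with at least 10 reads in every library. Genes averaging 1 CPM or more over the 6 libraries were tested on log2(CPM + 1) with limma 3.58.1 (R 4.3.3) and a mean-variance trend, in 1 fit of 24 libraries (8 groups of 3) that share an estimate of the spread, and called at a Benjamini-Hochberg adjusted p under 0.05. A fold change on this scale understates that of low genes, and SE is the moderated standard error. Summed levels of lists carry no p, because an exact permutation test of 3 against 3 cannot go below 0.1. The fit was tested on simulated counts drawn with a common spread setting for all genes. No single library was shifted in them, so that test does not cover such shifts.

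Symbols and coordinates came from Ensembl release 115 (WBcel235), which held 12301 of the 12312 shared IDs. No sequence was used here. The comparison and the 40 gene lists were chosen with earlier results of these data known, and the proteasome list was corrected once after the data were seen to remove entries that are not proteasome genes. Named genes were hsf-1 and the genes borrowed by the transgenes, all yolk and adult cuticle genes, up to 4 called members and the most abundant member of each other list, and the 15 largest changes a side with at least 5 CPM and no overlap. Other names are marked as chosen after their values were seen.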

Additional observations from a re-analysis of the deposited data

How the results depend on the processing

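The alternatives run were 4 other scalings, pseudocounts of 0.5 and 2, no filter, a 5 CPM filter and voom. The others were a fit of only the compared libraries, a replicate block and each library left out. Of the 654 genes called between CA1199 and CA1200, none changed sign where measured (499 of them with the 5 CPM filter). Filters, the block and the fit of compared libraries leave the fold change as it was, and most called genes did not overlap between strains. A kept sign was therefore nearly fixed in advance and does not measure how well the calls hold. With only the 6 libraries in the fit 288 were called. For heat on ethanol (118 called) the count was 196 with the deposited scaling, 78 with voom and 39 with only the compared libraries. For heat on auxin (135) it was 78 with quantile scaling, 80 with the 5 CPM filter and 53 with only the compared libraries. For JTL621 against JTL611 (57) it was 161, 91 and 110 with total, trimmed-mean and quantile scaling, 35 with the 5 CPM filter, 121 with voom and 3 with only the compared libraries. The labels do not say whether replicate numbers pair the samples. Same-numbered CA1199 and CA1200 libraries had deviations correlated at 0.281, -0.105 and 0.209. The best partner was the same-numbered library for replicates 1 and 3 but not for replicate 2, so these values cannot decide it. With the replicate block the counts were 897 for CA1199 against CA1200 on unheated ethanol, 532 for unheated auxin, 239 for heat on ethanol, 258 for heat on auxin and 308 for the tagged pair.

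Leaving out 1 library at a time gave 257 to 726 called genes on unheated ethanol, 154 to 297 on unheated auxin, 31 to 1329 for heat on ethanol, 31 to 224 for heat on auxin and 8 to 122 for the tagged pair. The log2 ratio of summed CPM, CA1199 over CA1200, then ranged from -0.33 to -0.20 for oocyte, -0.34 to -0.15 for maternal, -0.07 to 0.06 for major sperm protein, -0.01 to 0.12 for spermatogenesis, -0.02 to 0.26 for vitellogenin, 0.19 to 0.29 for embryonic, -0.07 to -0.05 for adult cuticle, -0.07 to -0.04 for collagen, 0.01 to 0.09 for molting and -0.28 to -0.23 for DNA replication genes. With total, deposited and quantile scaling the ratio was -0.0347, -0.0197 and 0.0035 for adult cuticle and -0.0316, -0.0166 and 0.0109 for collagen genes, and with quantile scaling it was 0.11 for embryonic and -0.19 for DNA replication genes, so the sign of the adult cuticle and collagen sums flips under quantile scaling. Of the 98 named genes that were called, 41 kept the call in every alternative and 46 lost it without CA1199 replicate 2. Genes under about 1 CPM rest on few reads: the 3-read floor was 0.160 to 0.204 CPM per library, for counting error only.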

Other observations

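Some gene families outside the lists above were grouped after their values were seen, so their counts are descriptions, to be read beside the 4.22% of all genes called higher and the 1.23% called lower. All 18 measured nspc genes, short secreted peptides, were below 0, with a median log2 fold change of -0.69, and 14 were called lower (8 without CA1199 replicate 2). Their summed level was 59.8, 43.2 and 55.7 CPM in CA1199, against 101, 97.7 and 97 CPM in CA1200, and in the tagged pair 62.6, 56.7 and 59.5 CPM in JTL621, against 103, 73.4 and 105 CPM in JTL611. These genes are near-identical copies, between which reads may be split. In the other direction, 6 of 7 irg genes were called higher, with a median of 1.19 and a sum of 1331, 2251 and 1366 CPM in CA1199, against 813, 710 and 759 CPM in CA1200. The count of 6 was 3 without CA1199 replicate 2 or CA1200 replicate 2 and 4 without CA1200 replicate 3. Of 14 pgp transporter genes 4 were called higher, with a median of 0.26, and 4 or 5 with each library left out. Of 26 carboxylesterase genes 5 were called higher, with a median of 0.35, but 1 without CA1199 replicate 2 or CA1200 replicate 3 and 2 without CA1200 replicate 2. Of 10 mec genes 4 were called higher, with a median of 0.49, and 2 without CA1199 replicate 2, CA1200 replicate 2 or CA1200 replicate 3. Of 144 nuclear hormone receptor genes 6 were called higher (4.17%), a share no larger than that of all genes, and 1 to 9 with 1 library left out: 1 without CA1199 replicate 2, 3 without CA1200 replicate 1 and 9 without CA1199 replicate 3.

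Called genes were spread unevenly over the chromosomes: 7.94% of the tested genes on X, 7.56% on V, 6.54% on IV, 4.94% on II, 3.12% on III, 3.05% on I and none of 14 mitochondrial genes (limma). Neighbours were sought among 174 genes: 150 called with a change over 2-fold, and the 24 of highest level among those listed in 1 table only. Of these, 50 lay within 20 kb of another in 21 groups. The share for genes at large was not computed, so the count is a description. Neighbours did not always move together. On chromosome IV, from 13057710 to 13069994, scl-2 was higher in CA1199, scl-3 lower, and scl-6 was listed for CA1200 only. On chromosome I, F30A10.14 was higher in CA1199 and F30A10.11, which starts 278 bases further on, was listed for CA1200 only. On chromosome X, vap-1 and F11C7.2, 258 bases apart, were both listed for CA1200 only.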
